A study of Mus musculus with 6 samples.

Results

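Of the 7645 autosomal gene regions with 6 to 59 measured cytosine positions in a reduced representation bisulfite sequencing (RRBS) table of mouse quadriceps muscle, 65 had a mean methylation level of at least 70% and are described here. They make up 0.850% of those regions and hold 563 of the 268725 positions listed in the 10755 regions of the whole table. The level of a region is the unweighted mean of the methylated fraction over its positions, and the regions were chosen by its mean over all 6 samples, so the levels below describe that choice and carry no test. The gene symbol was known for 64 of the 65 regions.

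Per the labels, DNA came from the quadriceps of C57BL/6 mice in 2 groups of 3 samples. These were exercised mice trained on a motor-driven treadmill for 4 weeks and sedentary controls. DNA of the exercised mice was isolated 3 hours after the final bout, and no such time applies to the sedentary samples. RRBS reads bisulfite-converted restriction fragments, in which only methylated cytosines are still read as cytosine, so that each position gives a share of methylated reads. The labels do not say whether replicates are separate animals, and p-values therefore measure only the spread between these samples, which may be technical.

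In mammals, cytosines followed by guanine (CpGs) are mostly methylated across the genome, while CpG-dense promoters are mostly kept free of methylation. A well-known exception is a set of germ cell genes, whose CpG-rich promoters acquire methylation in the early embryo through DNMT3A and DNMT3B and stay methylated in the body's tissues. CpG-poor promoters of genes used in other tissues are another common place of high methylation in a tissue that does not use them.

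Every listed position was covered by at least 10 reads in each sample. The total number of calls was lowest in sedentary sample 3 (9153526) and highest in sedentary sample 2 (18656340), and the median coverage of the 563 positions from 22 reads to 39 reads per sample. Coverage was lower in the highly methylated regions, with a median over regions of 31.8 reads against 51.3 reads in the other 7580 regions. Of the markers of skeletal muscle that were looked for, only Acta1, Des and Pvalb had a region in the table, at 72.3% (3 positions), 28.5% (15 positions) and 0.370% (3 positions). These are methylation levels and do not measure expression.

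The promoters of 6 of the regions are shown so that the measured cytosines can be seen in their sequence. They were taken from those whose listed positions could be placed base by base, and they cover piRNA and meiosis genes (Ddx4, Mael, Sycp1), a testis retrogene (Naa11), an innate immune gene (Tlr1) and a widely used gene (Jade1). Each line gives 250 bases of the RefSeq promoter on GRCm38.p6, 5′ to 3′ in the direction of the gene, from 220 bases before the annotated start to 30 after it. Capitals mark the CpGs at which the deposited table lists at least 1 position.
Ddx4: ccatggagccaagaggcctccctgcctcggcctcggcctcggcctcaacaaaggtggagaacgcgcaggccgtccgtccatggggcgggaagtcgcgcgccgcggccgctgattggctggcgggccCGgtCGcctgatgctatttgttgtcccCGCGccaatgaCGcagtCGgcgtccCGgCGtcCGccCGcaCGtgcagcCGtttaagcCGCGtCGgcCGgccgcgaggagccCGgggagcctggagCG
Sycp1: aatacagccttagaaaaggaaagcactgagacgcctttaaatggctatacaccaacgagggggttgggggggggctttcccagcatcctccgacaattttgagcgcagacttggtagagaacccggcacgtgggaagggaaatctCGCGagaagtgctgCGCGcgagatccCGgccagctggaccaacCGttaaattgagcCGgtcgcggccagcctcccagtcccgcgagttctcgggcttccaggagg
Mael: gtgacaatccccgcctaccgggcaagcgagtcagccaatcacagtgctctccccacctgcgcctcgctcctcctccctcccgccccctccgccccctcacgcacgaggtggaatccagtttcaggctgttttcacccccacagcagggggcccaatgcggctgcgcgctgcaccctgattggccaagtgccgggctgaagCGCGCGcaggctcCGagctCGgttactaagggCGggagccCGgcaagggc
Naa11: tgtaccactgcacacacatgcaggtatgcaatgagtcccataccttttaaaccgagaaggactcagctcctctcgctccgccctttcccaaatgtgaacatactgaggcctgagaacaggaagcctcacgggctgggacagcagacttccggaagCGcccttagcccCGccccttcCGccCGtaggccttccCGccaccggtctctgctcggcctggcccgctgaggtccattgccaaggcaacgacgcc
Tlr1: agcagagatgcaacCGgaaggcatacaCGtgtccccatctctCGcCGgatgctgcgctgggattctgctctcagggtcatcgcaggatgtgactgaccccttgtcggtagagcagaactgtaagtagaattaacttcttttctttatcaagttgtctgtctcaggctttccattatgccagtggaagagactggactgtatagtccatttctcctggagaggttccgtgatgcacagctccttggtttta
Jade1: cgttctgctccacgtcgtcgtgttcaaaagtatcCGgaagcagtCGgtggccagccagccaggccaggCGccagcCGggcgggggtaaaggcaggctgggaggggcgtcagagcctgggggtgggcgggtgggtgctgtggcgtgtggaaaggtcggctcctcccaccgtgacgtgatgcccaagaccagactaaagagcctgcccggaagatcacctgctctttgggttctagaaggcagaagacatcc
In Ddx4, 18 of the 36 CpGs in this stretch were measured, and they run without a long break across the start. Sycp1 and Mael had 7 measured CpGs each here, of 19 and 20, and Naa11 had 5 of 15. Tlr1 and Jade1 had 4 each, all in the outer part of the promoter, at the left of the lines above. RefSeq lists 2 promoters for Tlr1 and 4 for Jade1, and which of them these samples use was not measured. The deposited regions that hold them, in mm9 coordinates, are chr13:113441519-113444518 (Ddx4), chr3:102739024-102742023 (Sycp1), chr1:168167876-168170875 (Mael), chr5:97820350-97823349 (Naa11), chr5:65322939-65325938 (Tlr1) and chr3:41357656-41360655 (Jade1).

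All regions are 3000 bp long. Where at least 4 listed positions fell into the promoter window, in 3686 regions, the positions of 2512 (68.1%) all coincided with CpGs of the RefSeq promoter when the region was read as 2000 bp before to 1000 bp after the transcript start, and this layout is used for distances below. Of the highly methylated regions 10 had such a window and 9 matched, namely Ddx4, Sycp1, Mael, Hsf5, Naa11, Prss40, Prcd, Tlr1 and Jade1.

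The 65 levels ran from 70.2% in Ddx4 to 98.5% in Actl7b, with a median of 87.8%. The level was at least 90% in 26 regions, from 80% to 90% in 23 and from 70% to 80% in 16. Just inside the threshold lay Ddx4 at 70.2%, Slc29a1 at 70.9%, Paqr7 at 71.0% and Mettl7b at 72.3%. Just outside lay Ptprcap at 69.9%, Tdrd1 at 69.7% and Cacnb1 and Pou5f2 at 69.5% each, so the border does not fall in a gap between levels. Of these, Tdrd1 (a Tudor protein of the piRNA pathway) and Pou5f2 (a testis POU factor) are germ cell genes too, while Ptprcap and Cacnb1 are not.

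**Figure D1:**
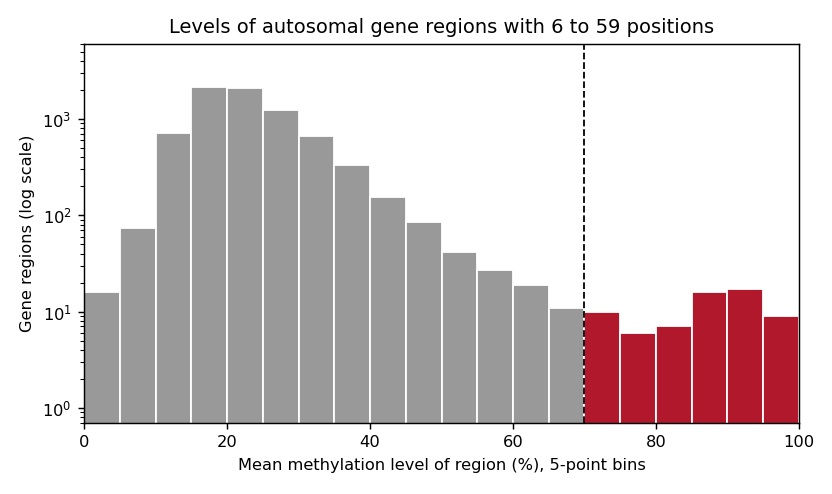
Number of autosomal gene regions with 6 to 59 positions (log scale) in 5-point bins of mean methylation level, with the 70% threshold as a dashed line and bins above it in red. Most regions lie between 10% and 35%, and the regions above 70% form a small second group with 16 regions from 85% to 90% and 17 from 90% to 95%.

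Single positions were mostly near full methylation. Of the 563 positions, 299 (53.1%) stood at 90% or more and 18 (3.20%) under 50%, while in the other 7580 regions 13.0% of positions stood at 90% or more and 81.1% under 50%. No position was under 50% in 52 of the 65 regions. The regions were short in what they sampled: 50 had 6 to 8 positions, the median region held 5 CpGs within 49 bp, and in 45 all positions lay in 1 stretch with gaps of at most 100 bp. Only 11 regions had 10 positions or more, namely Ddx4 with 29, Sfi1 with 26, 1700067K01Rik with 25, Sycp1 and Hsf5 with 18 each, Fam174c with 16, Myh14 with 14, Pabpc6 with 13, Majin with 12, and Krt83 and Mael with 10 each.

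Germ cell genes were the largest group of those assigned by what each gene is known for. They made up 21 of the 65 regions (32.3%), at 70.2% to 98.5% with a median of 92.1%, and 11 of them were at 90% or more. The grouping was made by hand with the levels known. In 4 lists of germline genes, which also were written with earlier results known, 11 of the 43 measured regions (25.6%) were highly methylated, beside 0.850% of all regions with 6 to 59 positions. Those 11 were 4 of 12 regions in the list of piRNA and germ cell RNA genes, 3 of 12 in meiosis, 3 of 9 in oocyte and early embryo, and 1 of 10 in sperm and testis.

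Among piRNA and germ cell RNA genes, Mael, whose protein acts in transposon silencing, had 10 positions from -20 to 61 bp of the start. In the order of the replicate numbers, its level was 89.4%, 91.4% and 95.4% in the 3 exercised samples, with 97.0%, 96.5% and 92.7% in the 3 sedentary ones. All 6 values lay above 89% and the groups overlapped. Mov10l1, the RNA helicase that feeds piRNA precursors into processing, averaged 87.2% ± 1.95 (SD, n = 6) over 7 positions. Adad2, an RNA-binding protein of spermatocytes and spermatids, averaged 92.3% ± 1.85 (SD, n = 6) over 9 positions.

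Ddx4 encodes the germ cell RNA helicase Vasa, the classical marker of germ cells, and had the most positions of all 65 regions. Its level was 72.3%, 67.5% and 75.1% in the exercised samples and 71.0%, 73.4% and 62.2% in the sedentary samples, with sedentary sample 3 the lowest. Its 29 positions, from -93 to 45 bp of the start, ran from 31.4% to 99.7%. The lowest pair, at 31.4% and 39.4%, lay at -27 and -26 bp and the position at 42.7% at -39 bp, while the outermost positions reached 99.0% and 98.7%. The position at 99.0% lies at the cut-site letters CCGG, where levels stood high across the table (values follow). In Ddx4 the positions at cut-site letters averaged 87.9% and those at other CpGs 64.6%. In bulk tissue a partial level of this kind cannot be told apart as fewer cells with methylated alleles or as part of the alleles in every cell.

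Among meiosis genes, Sycp1, the transverse filament of the synaptonemal complex that holds paired chromosomes together, had 18 positions in 2 stretches. Its level was 95.6%, 94.0% and 96.1% in the exercised samples and 91.8%, 94.9% and 91.8% in the sedentary samples. The stretch before the start and the one after it were both high, and no position was under 77.1%. Syce1, another part of the synaptonemal complex, averaged 89.6% ± 3.94 (SD, n = 6), and Majin, which ties telomeres to the nuclear envelope in meiosis, averaged 89.0% ± 3.50 (SD, n = 6) over 12 positions. Hsf5, a factor of the heat shock family expressed in spermatocytes, had 18 positions after the start at 63.9% to 99.6% and a level of 87.8% ± 2.63 (SD, n = 6).

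**Figure D2:**
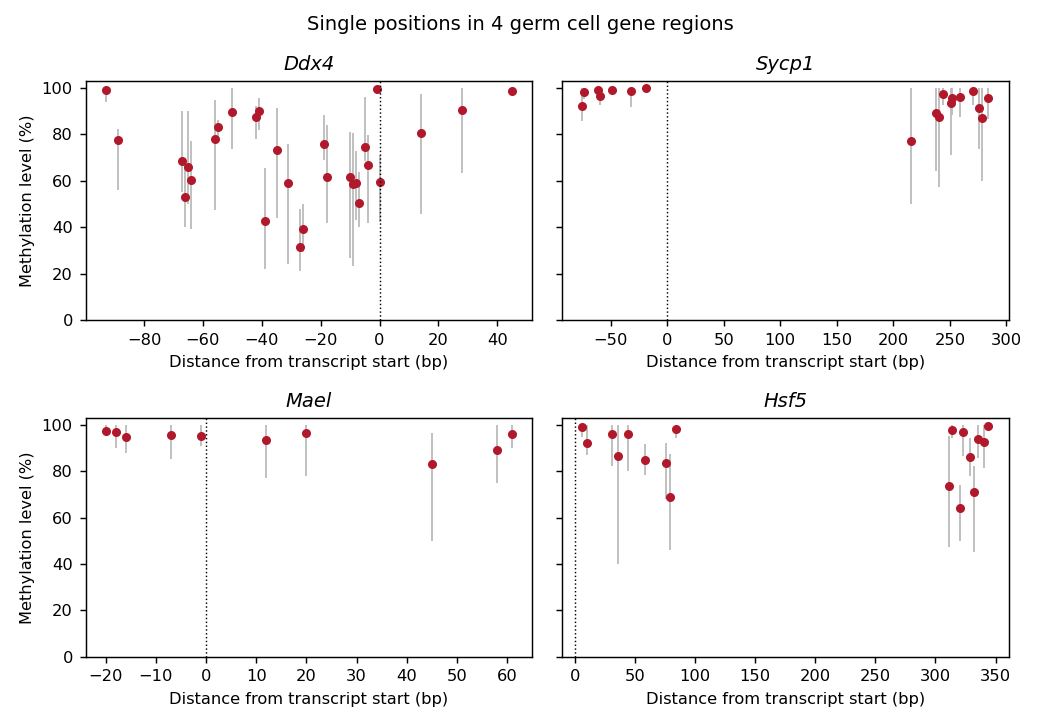
Methylation level (%) of each listed position against its distance from the transcript start (bp) in Ddx4, Sycp1, Mael and Hsf5, with points at the mean of 6 samples and grey lines from the lowest to the highest sample. Sycp1 and Mael stay high throughout, Hsf5 has single positions down to 63.9%, and Ddx4 spreads from 31.4% to 99.7% with its lowest positions just before the start.

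Of the oocyte genes, Sohlh1 and Sohlh2, which encode partner transcription factors of early oocytes and spermatogonia, stood at 89.8% ± 2.84 and 96.3% ± 1.77 (SD, n = 6 each). Zp3, the sperm-binding protein of the zona pellucida, stood at 84.5% ± 6.27 (SD, n = 6), at the lowest coverage of the 65 regions (19.17 reads). Genes of spermatids and testis made up most of the rest. Actl7b, an actin-related protein of spermatids, was the highest region of all, at 99.0%, 100% and 97.7% in the exercised and 100%, 98.0% and 96.2% in the sedentary samples.

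Several testis genes in the group are retrocopies, genes made from the mRNA of a parent gene. Naa11, a copy of the X-linked acetyltransferase gene Naa10, stood at 92.1%, Timm8a2, a copy of the X-linked mitochondrial gene Timm8a1, at 94.0%, and Pabpc6, a relative of the poly(A)-binding protein gene Pabpc1, at 95.5% with all 13 positions at 92.0% or more. Dnajb7, a testis chaperone gene, stood at 97.0% and Hus1b, a relative of the checkpoint gene Hus1, at 93.7%. The testis kinase gene Smok2b (87.4%) and the testis protease gene Prss40 (79.6%) belong to families of close copies. Whether reads were shared between such copies was not tested. A pair of genes named after RIKEN clones completed the group: 1700067K01Rik, with 25 positions from -196 to -12 bp of the start, stood at 74.2% ± 3.41, and 4930579F01Rik at 97.4% ± 1.66 (SD, n = 6 each).

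Most measured germline genes were not highly methylated. The other 32 of the 43 list members ran from 2.33% in Tcp11 to 69.7% in Tdrd1. Rnf17, a Tudor protein of germ cells, stood at 65.0% and Pou5f1, the pluripotency factor Oct4, at 52.9%. The RNA-binding protein gene Dazl stood at 22.9%, the meiotic recombinase gene Dmc1 at 24.9% and the cohesin gene Stag3 at 32.3%. High methylation was found in a part of the germline genes in this table, and the median over the 4 lists was 30.9% beside 21.8% for all regions with 6 to 59 positions. These low and middle levels include positions at the cut-site sequences CCGG and TCGA (values follow), which stood far above other CpGs.

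Genes of hair, skin and squamous epithelium formed a group of 7 regions at 73.3% to 97.9%, with a median of 81.2%. Of the 13 measured regions of the list for these tissues, 6 were highly methylated (46.2%). Krt4, a keratin of the oesophagus and other stratified linings, was at 99.1%, 97.9% and 97.7% in the exercised and 97.3%, 98.0% and 97.2% in the sedentary samples, and no region of the 65 varied less. The hair keratins Krt82 and Krt83 stood at 81.2% and 78.3%, the keratins of the inner root sheath Krt26 and Krt28 at 91.6% and 74.9%, the hair keratin-associated gene Krtap3-1 at 91.3%, and Padi3, which modifies hair proteins, at 73.3%. These genes lie in clusters: the regions of Krt26 and Krt28 are 36.9 kb apart on chromosome 11 with Krtap3-1 192 kb further, and those of Krt83 and Krt82 are 59.1 kb apart on chromosome 15.

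Genes of the eye and nose gave 5 regions. Omp, the marker of mature olfactory neurons, stood at 93.7%, Rcvrn, the photoreceptor calcium sensor recoverin, at 87.6%, Prcd, a protein of photoreceptor discs, at 84.7%, Kcnv2, a potassium channel subunit of photoreceptors, at 82.5% and Abca4, the retinal transporter, at 75.8%. Blood, platelet and endothelial genes gave 5 more. Tlr1, a receptor for bacterial lipopeptides on macrophages, stood at 94.3%, the granule proteases Gzmm of natural killer cells and Elane of neutrophils at 92.8% and 89.7%, Rasip1, an endothelial regulator of vessel lumen formation, at 93.8%, and the platelet thrombin receptor gene F2rl3 at 77.3%. Muscle tissue contains vessels and blood cells, and their part in these levels was not tested.

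In the lists of 5 other tissues, 10 of 62 measured regions (16.1%) were highly methylated: 6 of 13 for skin, 2 of 7 for leukocytes, 2 of 13 for brain and sensory organs, 0 of 27 for gut, liver, kidney and pancreas and 0 of 2 for placenta and mammary gland. The skeletal muscle list had 0 of 7, but it did not include the muscle genes Capn3, Nexn and Wfikkn1, which were highly methylated (values below). The lists were chosen with earlier results known. The 0 of 7 thus depends on which genes were listed and does not set muscle genes apart from the other lists. Families used for comparison had 0 of 92 ribosomal protein genes, 0 of 138 zinc finger genes named Zfp, 0 of 21 Hox genes, 0 of 14 genes of the germ cell families named Tekt, Spata, Tex, Tdrd, Catsper and Odf (median level 23.1%) and 2 of 161 solute carriers (Slc29a1 and Slc36a2).

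The group also held 3 genes of muscle, none of them in the muscle list. Capn3, the muscle calpain mutated in a limb-girdle dystrophy, stood at 92.6%, 92.3% and 94.5% in the exercised and 91.4%, 93.9% and 91.7% in the sedentary samples. Its 6 positions lie 52 to 90 bp after the start of the transcript that keys the region. RefSeq lists a further promoter for this gene, and which start these samples use was not measured. Nexn, an actin-binding protein of the Z-disc, stood at 86.9% ± 4.81, and Wfikkn1, which encodes an inhibitor of myostatin, at 90.7% ± 3.14 (SD, n = 6 each), the latter at positions 952 to 986 bp after the start.

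Genes that are widely used or have no narrow known tissue gave 13 regions. In several of them, as in other groups (distances below), the measured positions lay away from the start. Rccd1 stood at 97.9% with positions -1746 to -1139 bp from the start, and Dpm1, a subunit of the dolichol-phosphate mannose synthase, at 87.5% with positions -1325 to -1296 bp from it. Sod2, the mitochondrial superoxide dismutase, Paqr7 and Fam174c held a highly methylated upstream stretch beside lower positions. In Fam174c the stretches that began at -1541, -951 and -433 bp averaged 90.8%, 95.03% and 83.9%, and the one that began 99 bp after it averaged 39.9% with a lowest position of 3.25%. Jade1, a chromatin scaffold protein gene, had its positions nearer to an annotated start, at -186 to -145 bp, and each stood at 96.7% or more. Other genes of this group were Trim52 at 97.2%, Gas8 at 90.1%, Asphd2 at 88.9%, Sfi1 at 85.9%, the non-muscle myosin gene Myh14 at 81.5% and the nucleoside transporter gene Slc29a1 at 70.9%. Another 9 regions belong to genes of other restricted tissues, namely Bhlha15, Noxa1, Mslnl, Apon, Mettl7b, Nrn1l, the amino acid transporter gene Slc36a2, the potassium channel gene Kcng1 and the forkhead gene Foxs1, at 72.3% to 93.1%, and 2 to a predicted gene (Gm128) and the transcript without a symbol.

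Over the 51 regions with a known strand, the median position lay within 500 bp of the start in 30 (58.8%), beside 87.7% of the other regions with 6 to 59 positions. It lay further upstream in 23.5%, beside 4.97%, and further downstream in 17.6%, beside 7.36%. Tissue-restricted genes were among these distant regions. Positions lay at -1500 to -1469 bp in Hus1b, -1978 to -1935 bp in Padi3 and -1418 to -1387 bp in Rasip1. In Elane they lay at 678 to 762 bp, and in Actl7b, the highest region, at 515 to 581 bp. Sequence was not used to choose the regions. Among genes with a single RefSeq promoter of 300 bases, the 44 of the highly methylated regions had a median observed-to-expected CpG ratio of 0.466, beside 0.804 in 4721 other measured genes and 0.389 in all autosomal promoters of the table. The ratio was at least 0.6 in 14 of the 44 (31.8%) and in 82.8% of the others, and the median GC content was 56.3% and 63.3%. Germ cell genes had both low and high ratios. The ratio was 0.0790 in Dnajb7, 0.110 in Smok2b, 0.199 in Actl7b and 0.211 in Hus1b. It was 0.780 in Mael, 0.874 in Sycp1 and 0.978 in Ddx4. Only 10 of the 65 regions were found to have at least 4 listed positions in such a promoter. These values, and the motif shares that follow, thus mostly describe promoters with few or no measured positions.

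Short motifs were searched on both strands of the same promoters, overlaps allowed. The TATA box letters TATAAA occurred in 11.4% of the 44, in 6.31% of the other measured genes and in 13.6% of all promoters. The GC box letters GGCGGG occurred in 45.5%, 71.4% and 35.6%, the E2F-type letters TCCCGC in 20.5%, 40.8% and 20.2%, and the E-box letters CACGTG in 20.5%, 10.8% and 7.14%. These are matches of letters and do not show binding.

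Positions within certain 4-letter sequences stood apart in this table. In the 2512 matched promoters, 8435 positions at CCGG had a median level of 69.6% and 836 at TCGA a median of 70.4%, while 23830 positions at other CpGs had a median of 1.41%, and 39.3%, 42.0% and 0.159% stood at 90% or more. These 4-letter sequences are the cut sites of MspI and TaqI. The labels name no enzyme, and why positions at these letters stood apart was not tested. The mean that chose the 65 regions includes such positions, and how far they raise it is not known for the 56 regions without a matched window, where the letters around a position were not read. In the 9 highly methylated windows the 22 positions at CCGG had a median of 97.0%, the 4 at TCGA 90.9% and the 55 at other CpGs 89.5% (mean 80.3%). These regions were chosen by a mean that includes the same positions, so high levels at their other CpGs follow in part from that choice.

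By gene, the mean away from those letters in the promoter window was 97.9% in Jade1, 97.0% in Sycp1, 93.7% in Mael and 91.9% in Tlr1. It was 91.5% in Hsf5, 91.0% in Naa11, 82.2% in Prcd, 73.3% in Prss40 and 64.6% in Ddx4. Ddx4 thus lay under 70% there, with its 7 positions at the cut-site letters at a mean of 87.9%. The window held only a part of some regions: 7 of 18 positions in Sycp1, 5 of 8 in Naa11 and 8 of 10 in Mael. In Hsf5 it held 5 of 18, and 2 of those 5 lay at the cut-site letters. Of the germline list genes below the threshold, 6 had a matched window with at least 3 other CpG positions. Their other CpGs averaged from 0.859% (Ybx2) to 1.97% (Zpbp2), and in Psmc3ip, Tdrd5, Spata18 and Spdya the cut-site positions averaged 64.5%, 56.0%, 59.6% and 71.0%. The first and last position of each stretch were left out in all 65 regions as an alternative chosen after seeing the data. The level stayed at 70% or more in the 56 regions without a matched window and in 8 of the 9 with one, and Ddx4 fell to 68.1%. In some regions few positions were left, with 1 each in Rccd1 and Paqr7 and 2 each in Foxs1, Sod2, Abca4, Nexn and Sohlh1. Leaving out the ends removed 10 of the 22 positions at CCGG in the 9 windows, so it takes out the cut-site letters only in part.

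The SD of a region's level over the 6 samples had a median of 3.42 percentage points, beside 2.10 points that binomial counting of the reads gives, and the median range from lowest to highest sample was 9.24 points. The binomial value takes positions as independent, while neighbouring positions share reads, so it can understate the counting error. All 6 samples were at 70% or more in 53 regions, at 80% or more in 38 and at 90% or more in 13. The range was at most 10 points in 35 regions and over 20 points in 2, Kcnv2 and Mettl7b.

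Among levels of 50% and over, the spread was smallest in regions at 90% or more. The median SD was 2.35 points in regions at 90% or more, 4.35 points from 80% to 90% and 4.36 points from 70% to 80%, beside 4.09 points in the 99 other regions from 50% to 70%. Regions from 10% to 30% had a median SD of 1.29 points with a median of 24 positions, beside a median of 7 positions in the highly methylated regions. With 6 to 12 positions in each class, the medians were 3.47 points at 70% or more, 4.34 points from 50% to 70%, 2.75 points from 30% to 50% and 1.90 points from 10% to 30%. An SD is bounded near 100%, and the ratio to the binomial SD was 1.43 at 90% or more, 1.96 from 80% to 90%, 1.59 from 70% to 80% and 1.87 from 50% to 70%. With positions taken as independent in the binomial SD, these ratios do not measure how much spread lies beyond counting.

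**Figure D3:**
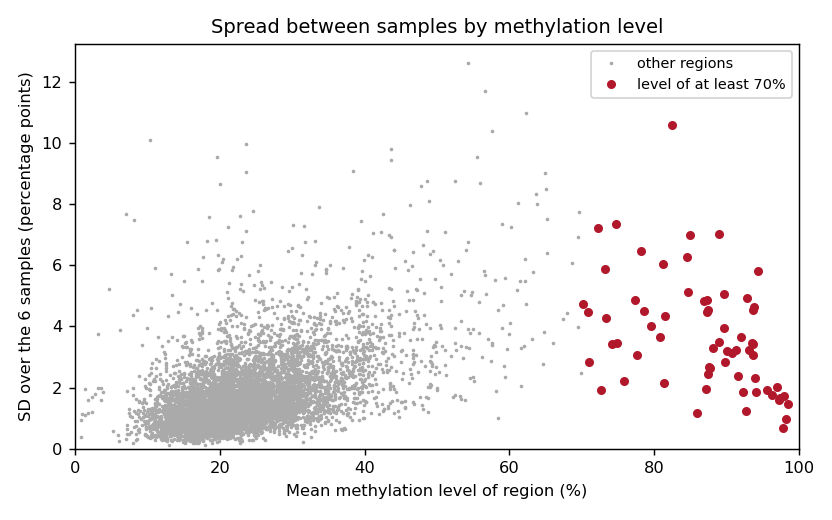
SD over the 6 samples (percentage points) against mean methylation level (%) for all autosomal regions with 6 to 59 positions, with the 65 highly methylated regions in red. The red points fall towards small SDs near 100%, and Kcnv2 stands above the rest at 10.6 points.

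The steadiest regions were Krt4 with an SD of 0.688 points, Jade1 with 0.957, Sfi1 with 1.16, Capn3 with 1.23 and Actl7b with 1.46. Sfi1, a centrosome protein gene, had a mean coverage of 648 reads, beside 70.05 in the next region, and whether reads of near-identical copies add to it was not tested. The least steady were Kcnv2 with 10.6 points, Bhlha15 with 7.33, Mettl7b with 7.20, Asphd2 with 7.02 and Noxa1 with 6.99. Kcnv2 had 6 positions on 3 CpGs and ranged from 64.4% in sedentary sample 3 to 96.1% in sedentary sample 1, with the exercised samples at 78.8%, 85.6% and 87.5% in between. Bhlha15, a factor of secretory cells also known as Mist1, ranged from 65.2% in sedentary sample 1 to 82.8% in exercised sample 1 at a mean coverage of 70.05 reads.

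No sample stood apart over the group. The mean over the 65 regions was 87.4%, 85.8% and 86.1% in the exercised samples, against 86.9%, 87.1% and 86.4% in the sedentary ones. Sedentary sample 3, with the fewest reads, was the lowest sample in 16 regions and the highest in 11, and exercised sample 1 was the highest in 19. The median absolute difference between a pair of samples was 2.40 to 3.84 points within groups and 2.27 to 4.26 points between groups.

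**Figure D4:**
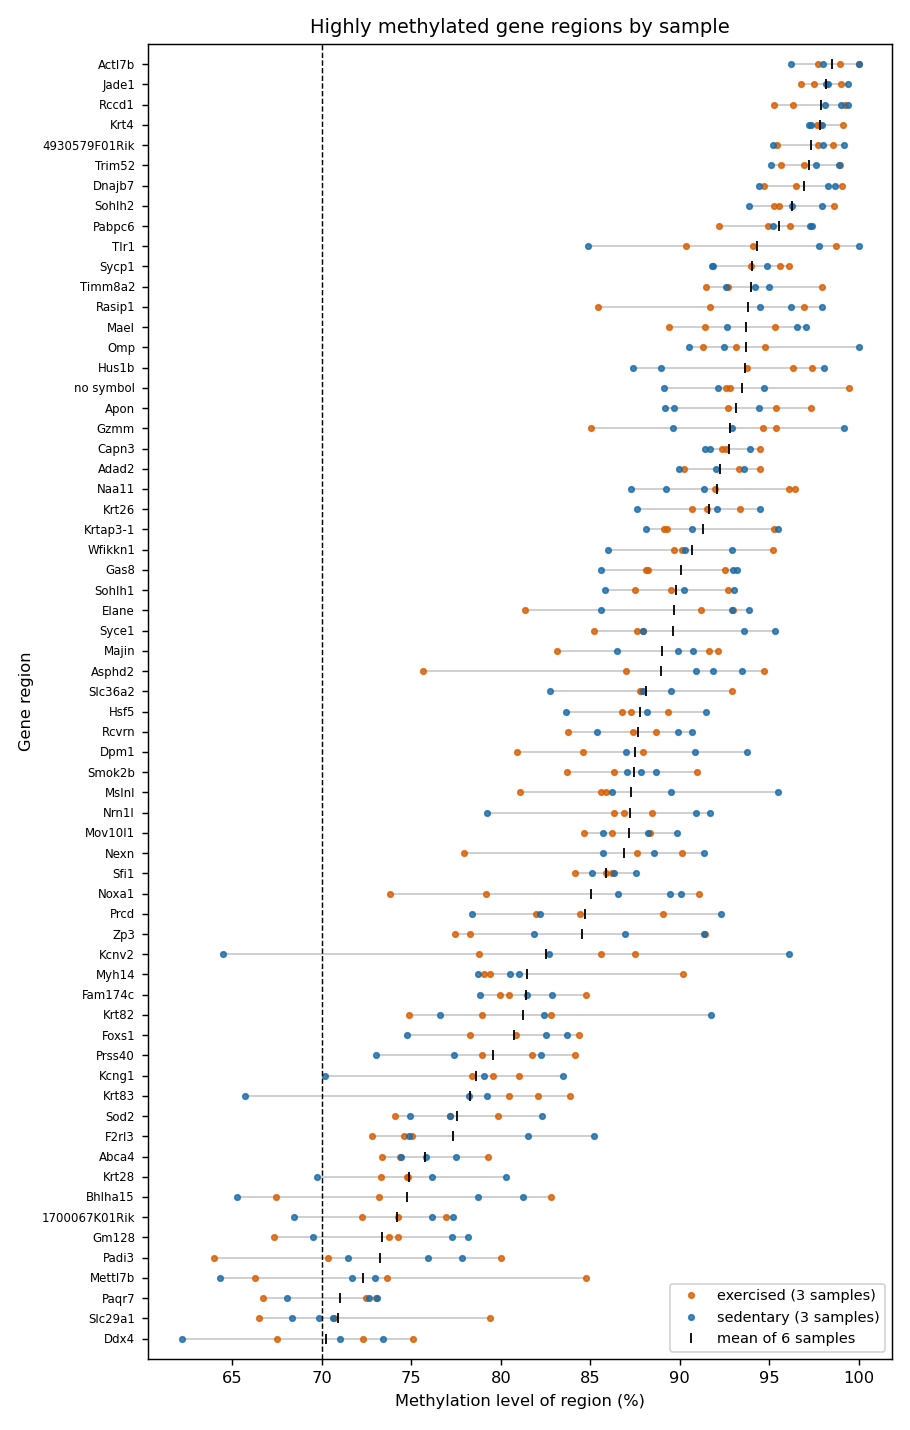
Methylation level (%) of 64 of the 65 highly methylated regions in 3 exercised (orange) and 3 sedentary (blue) samples, ordered by mean, with a black tick at the mean of the 6 samples and a dashed line at 70%. Regions near the top are tight in most cases, the groups overlap in all but 4 rows, and Kcnv2 has the widest range at 31.7 points.

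Exercised and sedentary samples were compared to ask whether 4 weeks of training went with a difference in these regions. The group means over the 65 regions were 86.4% ± 0.848 and 86.8% ± 0.359 (SD, n = 3 each). By edgeR's quasi-likelihood test on methylated and unmethylated reads, none of the 65 passed an adjusted p of 0.05, where 0.0% of all 10021 regions tested did, and the smallest adjusted p among the 65 was 0.9998. At an unadjusted p under 0.05 the same test gave 6 of 65 (9.23%), 2 higher and 4 lower in exercised samples, where 2.52% of all regions were called, 1.56% higher and 0.968% lower. The count with limma was 5 and with a quasi-binomial model 1, so it depended on the test.

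The groups did not overlap in 4 of the 65 regions (6.15%), where 9.21% of all regions tested did not overlap. The mean was higher in exercised samples in 30 regions and lower in 35, where 56.7% of all regions tested were higher. The median difference was -0.0930 percentage points over the 65 regions and 0.189 points over all tested. Single differences ran from -7.34 points in Noxa1 to 7.75 points in Krt83, and 56 of the 65 lay within 5 points.

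Of the regions with the smallest unadjusted p, that of the hair keratin gene Krt83 was at 80.5%, 83.8% and 82.1% in the exercised and 65.7%, 78.2% and 79.2% in the sedentary samples. The exercised samples were all above the sedentary ones, and sedentary sample 1 was far below the rest. Its difference was 7.75 points, with an unadjusted p of 0.00477 in edgeR's fit over all regions. It was 3.42 points without sedentary sample 1 and 19.6 points at positions covered by at least 20 reads. Naa11 was at 92.0%, 96.1% and 96.4% in the exercised and 91.4%, 89.2% and 87.3% in the sedentary samples, again with no overlap, and differed by 5.55 points with an unadjusted p of 0.0337 in that fit.

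In the other direction, the Mael values given above differed by -3.36 points with overlapping groups and an unadjusted p of 0.00977 in edgeR's fit, and by -2.03 points without exercised sample 1. Rasip1 differed by -4.85 points with an unadjusted p of 0.0226 in that fit. Exercised sample 1, at 85.5%, was its lowest, and the difference was -1.90 points without it, -7.65 points without exercised sample 3 and -2.92 points by share of reads. Syce1 was at 87.9%, 87.6% and 85.2% in the exercised and 95.3%, 87.9% and 93.6% in the sedentary samples, which barely separates the groups. Its difference was -5.36 points with an unadjusted p of 0.0480 in that fit. Gm128, a predicted gene, differed by -3.20 points with an unadjusted p of 0.0218 in that fit, and by -6.12 points by share of reads. Leaving out exercised sample 1 gave -0.983 points, and leaving out sedentary samples 1, 2 and 3 in turn gave -2.06, -1.60 and -5.95 points. Mslnl, a relative of the mesothelin gene, was the other region with no overlap, lower in exercised samples by 6.24 points at 84.2% ± 2.71 against 90.4% ± 4.71 (SD, n = 3 each).

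The remaining regions among the 5 smallest p-values per direction had unadjusted p-values over 0.05: Sycp1 with a difference of 2.40 points, Apon with 4.06 and Hus1b with 4.37, and F2rl3 with -6.39. The Hus1b difference was 7.67 points without sedentary sample 1 and 2.34 without sedentary sample 3, and that of F2rl3 was -4.07 points without sedentary sample 1. By gene group, the median difference was 0.1202 points in the 21 germ cell genes, -0.222 in the 7 hair and skin genes, -0.250 in the 5 eye and olfactory genes and -2.30 in the 5 blood, platelet and endothelial genes, of which 4 were lower in exercised samples. None of these groups was tested as a group.

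**Figure D5:**
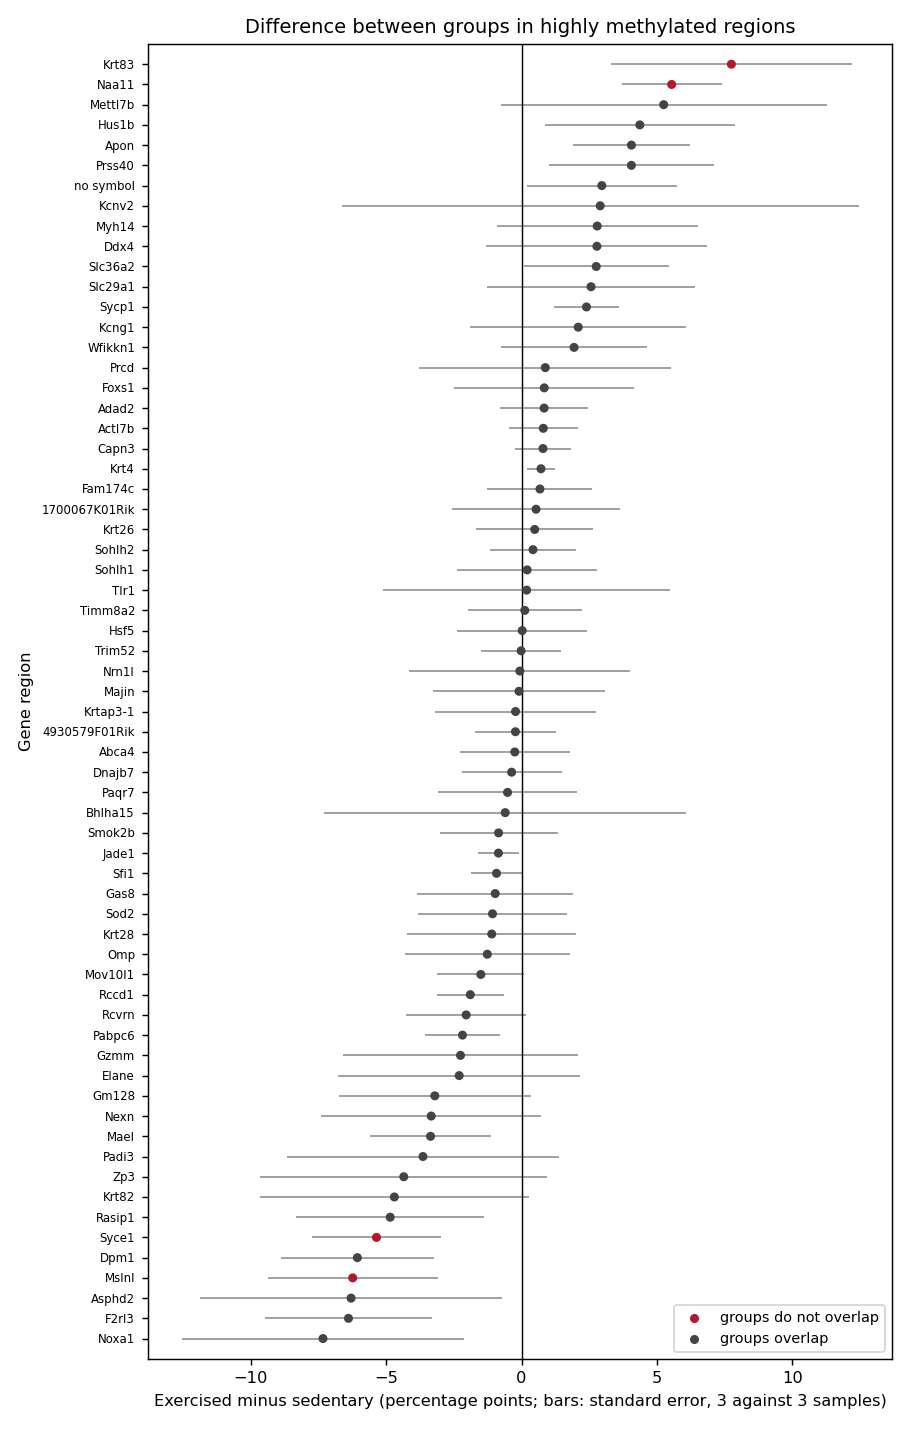
Difference in methylation level between exercised and sedentary samples (percentage points) for 64 of the 65 regions, ordered by size, with bars of 1 standard error from 3 against 3 samples and regions whose groups do not overlap in red. The differences lie on both sides of 0, from -7.34 in Noxa1 to 7.75 in Krt83.

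The authors' deposited table gives an unadjusted p-value and a class for single positions. In it, 20 of the 540 positions of these regions with a p-value (3.70%) were under 0.05, beside 3.13% of all positions with one. Of the 20, 3 were higher and 17 lower in exercised samples, and the split over all positions was not counted. A strong class in the authors' deposited table marked 5 positions (0.926%, beside 0.211%), with differences of -35.9 points in Dpm1, -25.2 in Krt82, -24.2 in Ddx4, -24.1 in Syce1 and 33.4 in Krt83. Adjacent positions share reads, so these are not independent observations, and no p-value there was adjusted.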

How the data were processed

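The deposited table gives, per the submitters' processing notes, positions on mm9 made with Trim Galore 0.2.5, cutadapt 1.0, Bismark 0.7.7 and Bowtie 0.12.9. What each tool did, and with which settings, is not stated in the labels. Its values per sample, as deposited, are the methylated fraction at a position (0 to 1) and the count of covering reads, at least 10 everywhere. Their product lay within 0.00236 of a whole number of reads and was rounded to methylated reads. Group differences and unadjusted p-values per position are the authors' own.

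The level of a region (1 RefSeq transcript) is the unweighted mean of its fractions, and adjacent positions, mostly the 2 strands of a CpG, were counted as listed. Reads were summed per region with at least 3 positions, and 10021 regions with methylated and unmethylated reads were fitted with edgeR 4.0.16 in R 4.3.3 (quasi-likelihood, a term for each sample, no dispersion trend, Benjamini-Hochberg adjustment at 0.05), after a test of the script on simulated data. Alternatives were a replicate block, each sample left out, coverage of at least 20, levels by share of reads, merged strands, thresholds of 60% and 80%, at least 6 positions in the fit, limma 3.58.1 on log2((methylated + 2)/(unmethylated + 2)), a quasi-binomial model and, chosen after seeing the data, leaving out the ends of stretches. The labels mention no molecular identifiers, so binomial SDs cover counting error only, with positions taken as independent.

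Symbols (10655 of 10755 transcripts) and promoters came from RefSeq tables on GRCm38.p6, used for names and sequence only, with no coordinates converted. The regions, gene lists, gene groups and naming rule were chosen with earlier results of these data known. The naming rule took the 8 highest levels, the 4 regions on each side of the threshold, the 5 smallest p-values per direction, the 5 lowest and 5 highest SDs, the 4 with most positions and up to 6 members per list. Genes named for their group, Fam174c, Sod2, Nexn, Capn3 and Wfikkn1 among them, were added after their values were seen, as were the printed promoters, limited to those whose measured CpGs could be placed, in place of 2 each from the germline, immune and epithelial lists. The values of 1 region are not reported singly here, and it is left out of the plots by region.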

Additional observations from a re-analysis of the deposited data

How the results depend on the processing

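The number of regions at 70% or more was 65 and fell to 8 with coverage of at least 20 reads and to 26 with the strands of a CpG merged, since fewer regions then keep 6 positions. 8 and 24 of these regions, respectively, were among the 65. It was 62 by share of reads (all among the 65), 95 and 49 at thresholds of 60% and 80%, and 64 without the ends of stretches. No adjusted call was made under any alternative with edgeR, limma or the quasi-binomial model. The count at an unadjusted p under 0.05, which was 6, became 1 at coverage of at least 20 (of 32 regions that kept 3 positions), 1 with the quasi-binomial model and 10 at the 60% threshold, and ran from 4 to 11 when each sample was left out, with 11 without sedentary sample 2. Regions whose groups do not overlap numbered 8 at the 60% threshold in place of 4. The median SD of 3.42 points became 4.55 at coverage of at least 20 and ran from 2.93 to 3.56 without each sample in turn. The median difference of -0.0930 points ran from -0.896 to 0.544 without each sample in turn, so its sign rests on single samples. With the replicate block the unadjusted count was 8 and the adjusted count 0. Same-numbered samples had correlations of their deviations of -7.0e-05, -0.0905 and -0.0423, which cannot exclude a pairing. No label says that the numbers pair samples, so pairing was not used in the main fit. Of single-gene levels, 7 of 22 moved by more than 1 SD at coverage of at least 20, and none by share of reads or without a sample. Depth limits single regions, at a median of 22 to 39 reads per position and sample. With positions taken as independent, counting alone gives the level of a region an SD of 2.10 points at the median. Where positions share reads it can give more.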
